A study of Mus musculus with 72 samples.

Results

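The circadian clock is a transcription loop that runs in nearly every cell. CLOCK, or NPAS2 in its place, pairs with BMAL1 (gene Arntl) on E-box motifs and switches on Per, Cry, Nr1d1, Nr1d2, Dbp and Tef. PER and CRY proteins then hold that pair back, the nuclear receptors NR1D1 and NR1D2 (REV-ERB) repress Arntl, Clock and Npas2, and DBP and TEF act on D-box motifs, in Per genes among others. In liver and lung the loop also reads signals from the body: glucocorticoids act directly on Per1, and feeding sets the phase of the liver clock. Because the transcripts swing over the day, a set of them sampled at one moment reads out the phase and the amplitude together.

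The 10 genes described here are Clock, Npas2, Nr1d1, Nr1d2, Per1, Per2, Per3, Cry1, Dbp and Tef, out of 23787 gene symbols on the array. They were chosen as members of the clock loop, and a probe was assigned to one of them when its transcript accession belonged to that gene in RefSeq. This gave 19 probes out of 56605. The array holds 1 probe for Npas2, Nr1d1 and Per1, 2 probes for Nr1d2, Per2, Per3, Cry1 and Dbp, and 3 for Clock and Tef, and each gene is given by its brightest probe unless another is named.

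The mice were female C57BL/6 J animals of 6 to 8 weeks that received X-rays over the whole body at 1.05 Gy/min. Livers and lungs were taken 48 h later from mice given 0 (sham), 1, 2, 4, 8 or 12 Gy, with 3 samples per dose and tissue and 36 one-colour Agilent arrays in all. No group carried a genetic change, the control mice were sham-exposed in the same kind of container, and the time of day of harvest is not given in the sources used here. Values are log2 of the background-corrected intensity after quantile normalization within a tissue. A gene "passed" when its Benjamini-Hochberg adjusted p from limma was under 0.05 over all probes tested, and the dose trend is the fitted straight-line change over 12 Gy. Since the number of arrays per group is 3, only differences well above the spread between mice can be seen.

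The labels held up against genes that were not members. Cdkn1a, the p53 target that halts the cell cycle, had a dose trend of 5.13 ± 0.60 (SE) in liver and 2.88 ± 0.38 in lung, and Phlda3, another p53 target, 3.42 ± 0.31 and 1.64 ± 0.15. Hepatocyte markers summed to between 1740000 and 1910000 intensity units on the liver arrays and to at most 75500 on lung arrays, that highest value being lung sample 24 at 4 Gy. Of the spots, 46.1% to 54.0% in liver and 54.1% to 64.0% in lung were well above background. The arrays lay on 5 slides that followed dose. In lung, 0 and 1 Gy shared a slide, 2 Gy, 4 Gy and 2 samples of 8 Gy shared another, and the rest of 8 Gy with all of 12 Gy lay on the last, scanned on another day with the lowest shares well above background in lung (54.1% to 54.8% at 12 Gy). Lung doses of 2 Gy and above and the slide therefore cannot be told apart in a comparison with 0 Gy. In liver, 0 Gy, 1 Gy and samples 3 and 13 of 2 Gy shared a slide. Sample 23 of 2 Gy, all of 4 and 8 Gy and sample 6 of 12 Gy shared a second. Samples 16 and 26 of 12 Gy lay on the slide of the 0 and 1 Gy lungs. The first and second liver slides are thus linked by the 2 Gy samples alone.

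The regulatory sequence of the members that carry the results is shown because E-box and D-box letters sit in some of it. Each line is the 250 bases before an annotated transcription start, from RefSeq on GRCm38.p6, 5′ to 3′ on the strand of the gene, and capitals mark the motif letters that were found. Each motif was searched on both strands. The E-box was CACGTG. The E-box variant ended in another base and was CACGTT. The D-box was searched as TTATGTAA and, with another base in the middle, as TTACGTAA. The ROR element was TAGGTCA. None of these letter sets contains another.
Per1, plus strand, chr11:69098699-69098948: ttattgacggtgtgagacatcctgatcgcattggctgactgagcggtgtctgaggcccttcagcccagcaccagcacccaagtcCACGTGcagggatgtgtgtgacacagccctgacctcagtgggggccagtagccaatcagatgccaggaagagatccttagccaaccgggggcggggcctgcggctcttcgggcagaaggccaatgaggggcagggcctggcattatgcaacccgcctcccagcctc
Nr1d1, minus strand, chr11:98775378-98775627: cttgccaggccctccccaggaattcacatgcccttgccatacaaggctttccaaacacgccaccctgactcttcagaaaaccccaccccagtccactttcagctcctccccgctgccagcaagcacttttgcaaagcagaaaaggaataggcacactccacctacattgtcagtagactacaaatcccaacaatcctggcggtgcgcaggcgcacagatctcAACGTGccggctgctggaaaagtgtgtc
Dbp, plus strand, chr7:45704997-45705246: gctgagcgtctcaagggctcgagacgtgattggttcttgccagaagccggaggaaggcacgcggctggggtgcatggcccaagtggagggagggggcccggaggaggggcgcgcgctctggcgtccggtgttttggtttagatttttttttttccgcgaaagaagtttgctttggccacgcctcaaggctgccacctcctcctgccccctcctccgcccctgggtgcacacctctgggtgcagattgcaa
Tef, plus strand, chr15:81802423-81802672: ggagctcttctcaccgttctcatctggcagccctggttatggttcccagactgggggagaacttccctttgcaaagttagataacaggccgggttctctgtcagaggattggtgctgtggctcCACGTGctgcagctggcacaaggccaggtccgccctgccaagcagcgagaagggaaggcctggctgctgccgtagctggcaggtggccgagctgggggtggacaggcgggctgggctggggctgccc
Per3, minus strand, chr4:151044666-151044915: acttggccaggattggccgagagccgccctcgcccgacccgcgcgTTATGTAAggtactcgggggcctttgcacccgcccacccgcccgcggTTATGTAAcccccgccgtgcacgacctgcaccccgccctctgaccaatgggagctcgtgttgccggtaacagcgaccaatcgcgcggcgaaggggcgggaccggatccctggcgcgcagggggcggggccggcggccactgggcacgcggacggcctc

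The Per1 stretch held an E-box 166 bases before the start, and the stretch before its other start held none of the motifs. Tef held an E-box at each of its 2 starts, 127 and 138 bases before them, and Cry1 one at 60 bases with an E-box variant at 79. Per3 held the D-box TTATGTAA at 205 and at 158 bases, and Nr1d1 the E-box variant, read on the opposite strand, at 28 bases. The letters were in none of the stretches of Dbp, Clock, Npas2 and Nr1d2. Over all 32851 promoters of the same length, 6.02% held the E-box, 3.85% the variant, 0.931% a D-box and 2.23% the ROR element, against 4, 2, 1 and 0 of the 13 stretches of 9 members, which do not include Per2. A match is a description of letters and not of binding.

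Per1, a repressor arm gene that also answers directly to glucocorticoids, rose with dose in both tissues, and from 4 Gy on every sample lay above every control. In liver its log2 values were 11.66, 10.84 and 11.05 at 0 Gy and 10.54, 10.85 and 10.29 at 1 Gy. The 2 Gy livers gave 11.32, 11.40 and 11.98, still within reach of the controls. At 4 Gy the values were 12.21, 12.34 and 12.24, at 8 Gy 12.23, 12.18 and 12.31, and at 12 Gy 12.20, 12.22 and 12.07. All 9 livers at 4 Gy and above thus lay over every control, and they hardly differed among themselves. The rise was 1.08 ± 0.21 (SE) at 4 Gy, or 2.11-fold (adjusted p = 0.0122), 1.06 ± 0.21 at 8 Gy (adjusted p = 0.00648) and 0.98 ± 0.21 at 12 Gy (adjusted p = 0.0101). The 4 Gy and 12 Gy calls were lost without control sample 11, at 0.90 (adjusted p = 0.0681) and 0.81 (adjusted p = 0.058), and that of 4 Gy also without sample 14 of that dose (1.04, adjusted p = 0.0511). In a fit that included the slide none of these doses passed, at 0.46 for 4 Gy, 0.43 for 8 Gy and 0.40 for 12 Gy (adjusted p = 0.767, 0.595 and 0.739). Among the 2 Gy livers only sample 23 lay on the second slide, so the shift between the first and second slides in this fit rests on that 1 mouse. The 1 Gy difference of −0.63 ± 0.21, from the fit without the slide, did not pass (adjusted p = 0.557).

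In lung, Per1 stood at 13.78, 12.95 and 12.75 in the controls and at 12.59, 13.18 and 12.71 after 1 Gy. The values were 13.54, 13.49 and 14.06 at 2 Gy, 14.39, 13.84 and 13.84 at 4 Gy, 14.13, 14.04 and 13.91 at 8 Gy and 14.17, 14.37 and 14.18 at 12 Gy. Every lung at 4 Gy and above exceeded every control lung, although control sample 1 reached into the 2 Gy range. The difference was 1.08 ± 0.25 at 12 Gy (adjusted p = 0.0083), while 0.86 ± 0.25 at 4 Gy and 0.87 ± 0.25 at 8 Gy did not pass (adjusted p = 0.106 and 0.0735). The step from 1 Gy to 4 Gy had the same form in both tissues, and in both it coincided with a change of slide. The dose trends, 1.31 ± 0.32 in liver and 1.18 ± 0.27 in lung, differed by −0.18 ± 0.44 with all arrays normalized together (adjusted p = 0.827). In a fit that included the slide, the liver trend was 0.13 ± 0.43 (adjusted p = 0.929) and the lung trend 0.66 ± 0.51 (adjusted p = 0.923). Arrays of the second liver slide alone gave 0.12 ± 0.20, and those of the lung slide of 2 to 8 Gy alone 0.73 ± 0.48.

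Nr1d1, which encodes the repressor REV-ERBα, moved the other way. Its liver values were 8.52, 8.36 and 8.91 at 0 Gy, 6.64, 8.38 and 9.20 at 1 Gy and 9.50, 8.57 and 9.07 at 2 Gy. At 4 Gy they were 7.45, 8.14 and 7.79, at 8 Gy 6.58, 7.15 and 8.00, and at 12 Gy 7.22, 7.39 and 7.44. Every liver from 4 Gy on lay below every control, but 1 of the 1 Gy livers, sample 2, was about as low as the lowest 8 Gy liver. With that spread the differences from 0 Gy did not pass, at −1.36 ± 0.50 for 8 Gy (adjusted p = 0.102) and −1.24 ± 0.50 for 12 Gy (adjusted p = 0.163). The liver dose trend of −1.45 ± 0.44 passed narrowly (adjusted p = 0.0454), and it still passed in 3 of the 18 fits that each left out 1 liver, with an adjusted p of up to 0.0904. Without sample 2 at 1 Gy the 8 Gy and 12 Gy differences passed too (adjusted p = 0.0233 and 0.0401).

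The lung showed the decline with less scatter. Nr1d1 was 10.16, 10.01 and 9.75 at 0 Gy, 9.50, 9.37 and 9.98 at 1 Gy and 10.42, 9.46 and 9.98 at 2 Gy. It was 9.16, 9.73 and 9.06 at 4 Gy, 8.84, 9.32 and 9.45 at 8 Gy and 8.46, 9.11 and 8.34 at 12 Gy. All lungs from 4 Gy on were below all controls. The 12 Gy difference was −1.33 ± 0.28, a 2.52-fold decrease (adjusted p = 0.00433), and the lung trend was −1.24 ± 0.23 (adjusted p = 0.000628). The liver and lung trends differed by −0.04 ± 0.50 (adjusted p = 0.972). In a fit that included the slide the Nr1d1 trend was −1.61 ± 0.92 in liver and −1.91 ± 0.54 in lung, neither of which passed (adjusted p = 0.483 and 0.238). The arrays of the first liver slide alone, with doses up to 2 Gy, gave 1.94 ± 4.22. Those of the second liver slide alone, with 2 to 12 Gy, gave −1.84 ± 0.73. The lung slide of 2 to 8 Gy alone gave −1.68 ± 0.67, and none of these values passed.

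Dbp encodes a D-box activator and is among the strongest cycling transcripts of mouse liver. It fell with dose in both tissues. The liver values were 15.04, 14.93 and 15.12 at 0 Gy, 14.11, 15.00 and 15.06 at 1 Gy, 15.08, 15.13 and 15.19 at 2 Gy and 14.72, 14.97 and 14.99 at 4 Gy. They were 14.43, 14.37 and 14.89 at 8 Gy, and 14.21, 14.42 and 13.90 at 12 Gy. All 8 Gy and 12 Gy livers lay below all control livers, and so did sample 2 at 1 Gy (14.11), the animal number with the low Nr1d1 value. The 12 Gy difference was −0.85 ± 0.22 (adjusted p = 0.0295) and the liver trend −0.80 ± 0.19 (adjusted p = 0.0106). The 12 Gy call held in 13 of 18 fits that each left out 1 liver, and was lost without any one of the 3 controls or without sample 6 or 26 of 12 Gy, with values from −0.90 to −0.71 (adjusted p from 0.069 to 0.12). In lung, Dbp was 15.40, 14.95 and 15.26 at 0 Gy, 14.76, 14.96 and 15.12 at 1 Gy and 15.44, 14.99 and 15.38 at 2 Gy. The lung values were 14.95, 15.25 and 14.71 at 4 Gy, 14.39, 14.72 and 15.22 at 8 Gy and 14.51, 14.86 and 14.35 at 12 Gy. Every 12 Gy lung lay below every control, while the 4 and 8 Gy lungs overlapped the controls. The lung trend passed at −0.60 ± 0.18 (adjusted p = 0.0159), the 12 Gy difference of −0.63 ± 0.22 did not (adjusted p = 0.0557). The second Dbp probe gave the same picture, with trends of −0.76 ± 0.17 in liver and −0.69 ± 0.15 in lung, and at 12 Gy it passed in lung as well (−0.73 ± 0.18, adjusted p = 0.012). In a fit that included the slide the Dbp trend was −1.02 ± 0.38 in liver and −1.58 ± 0.36 in lung, and neither passed (adjusted p = 0.253 and 0.0842). The arrays of the first liver slide alone gave 0.12 ± 1.78. Those of the second liver slide alone gave −1.10 ± 0.27, and the lung slide of 2 to 8 Gy alone −1.42 ± 0.41. None of these values passed.

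**Figure D1:**
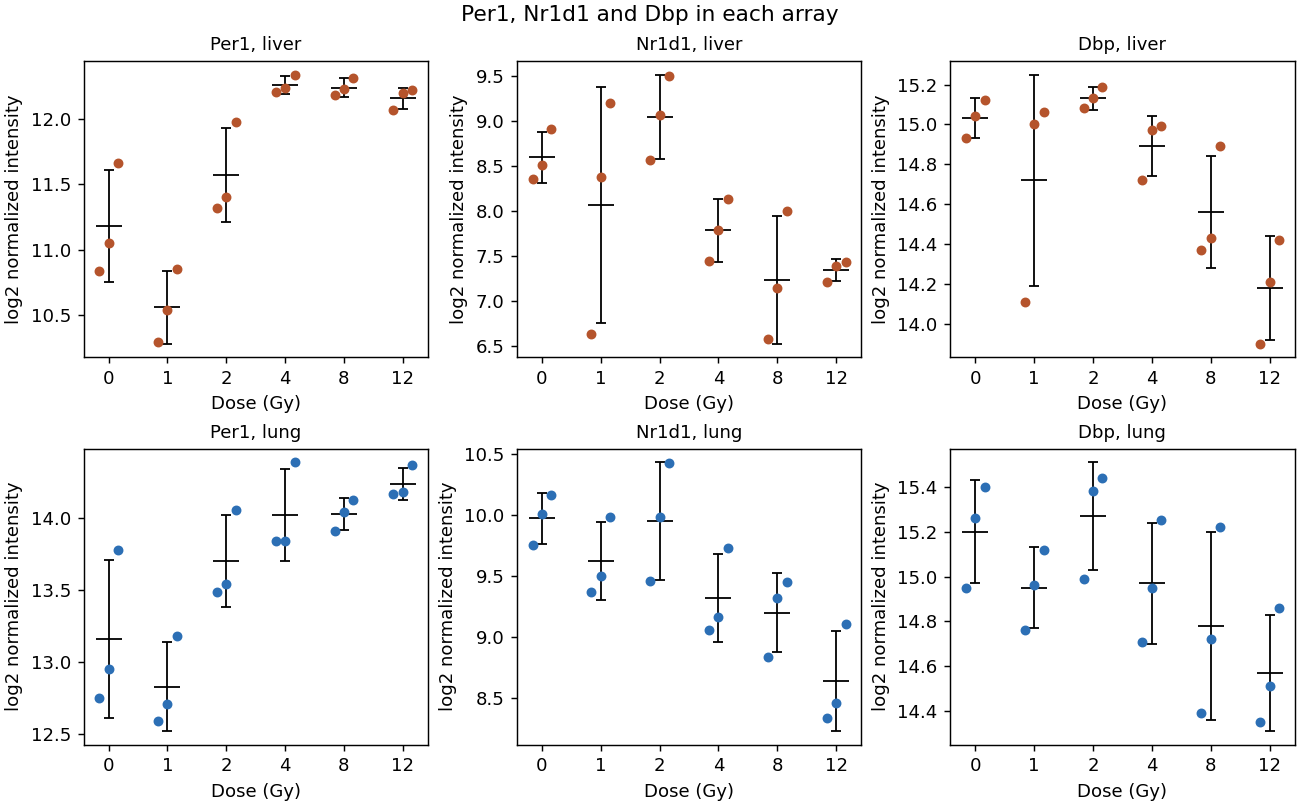
Log2 normalized intensity (y axis) of Per1, Nr1d1 and Dbp against dose in Gy (x axis, evenly spaced categories) in liver (top) and lung (bottom). Each point is 1 array, and black bars give the mean ± SD of the 3 arrays of a dose. Per1 steps up between 1 and 4 Gy, while Nr1d1 and Dbp decline from 4 Gy on, and the low point at 1 Gy in the Nr1d1 and Dbp liver panels is sample 2.

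The lung trends of Per2, Per3 and the PAR factor Tef passed upward, while their liver trends did not pass. Per2, a repressor like Per1, rose from 12.64, 12.25 and 11.90 in control lungs to 12.98 and 13.27 at 12 Gy, where the outlier-flagged spot of sample 16 was left out, and the 12 Gy difference was 0.86 ± 0.20 (adjusted p = 0.00946). Without sample 26 it was 0.72 (adjusted p = 0.0748). Its lung trend was 0.86 ± 0.15 (adjusted p = 0.000495), and 0.80 ± 0.34 in a fit that included the slide (adjusted p = 0.633). Livers gave 11.11, 11.00 and 10.71 at 0 Gy and 11.15, 11.03 and 10.91 at 12 Gy, which overlap, with a trend of 0.24 ± 0.18 that did not pass (adjusted p = 0.452). The second Per2 probe was well above background on 6 liver and 11 lung arrays and showed no such rise in lung, with a trend of 0.01 ± 0.26. Per3, the third period gene, had the smallest trend that passed, 0.38 ± 0.14 in lung (adjusted p = 0.0488), and 0.30 ± 0.12 in liver, which did not pass (adjusted p = 0.136). The Per3 lung trend held in 5 of the 18 fits that each left out 1 lung, and without sample 16 of 12 Gy it was 0.23 (adjusted p = 0.236). In a fit that included the slide it was −0.02 ± 0.33 (adjusted p = 0.999). The dimmer Per3 probe, well above background on 8 liver and 15 lung arrays, had a lung trend of −0.31 ± 0.20 (adjusted p = 0.251), and the mean over both probes was 0.04 (adjusted p = 0.881). At no dose did Per3 pass against 0 Gy in either tissue.

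Tef encodes a relative of DBP that binds the same D-box, yet it moved against Dbp. In lung it was 15.22, 14.51 and 14.55 at 0 Gy and 15.52, 15.49 and 15.17 at 12 Gy. Control sample 1 overlapped the irradiated lungs, and the other 2 controls lay below all 12 Gy values. The difference at 12 Gy was 0.64 ± 0.19 (adjusted p = 0.0244) and the trend 0.71 ± 0.17 (adjusted p = 0.00378). The 12 Gy call was lost without control sample 11 or 21 (0.51 and 0.53, adjusted p = 0.1 and 0.0952) and without sample 6 or 16 of 12 Gy (0.58 each). A second bright Tef probe gave a lung trend of 0.59 ± 0.15 (adjusted p = 0.0069), and the dim one −0.52 ± 0.21 (adjusted p = 0.0709). The mean over all Tef probes was 0.26 (adjusted p = 0.119), and the brightest probe gave 0.29 ± 0.35 in a fit that included the slide, which did not pass. Livers stayed between 13.69 and 14.21 over all doses, with a trend of 0.11 ± 0.12 (adjusted p = 0.635).

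Clock encodes the activator that PER and CRY inhibit. Its lung values were 10.84 and 10.14 at 0 Gy and 11.08 and 11.16 at 12 Gy, with the flagged spots of 1 sample per group left out. Both 12 Gy values lay above both controls, and the trend was 0.69 ± 0.17 (adjusted p = 0.00579). Its second bright probe, for which no array was dropped, gave 0.08 ± 0.22 in lung (adjusted p = 0.819), so the probes of Clock disagreed. With the flagged spots kept the first probe gave 0.47 (adjusted p = 0.0541), in a fit that included the slide 0.41 ± 0.33 (adjusted p = 0.938), and without the arrays of the last slide 0.34 ± 0.27 (adjusted p = 0.539). In liver Clock was flat, with −0.06 ± 0.15 (adjusted p = 0.853). Nr1d2, the paralog of Nr1d1, did not follow it. Its livers rose from 11.39, 11.36 and 11.53 at 0 Gy to 11.90, 12.03 and 11.85 at 8 Gy, a difference of 0.50 ± 0.15 (adjusted p = 0.0415) that the second probe matched with 0.56 ± 0.11 (adjusted p = 0.00694). The 8 Gy call of the brighter probe held in 7 of 18 fits that each left out 1 liver, with values from 0.45 to 0.55. At 12 Gy the liver difference was 0.20 ± 0.15 (adjusted p = 0.488). In lung the probes of Nr1d2 parted: −0.10 ± 0.16 for the brighter one (adjusted p = 0.671) and −0.61 ± 0.20 for the other (adjusted p = 0.0284).

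**Figure D2:**
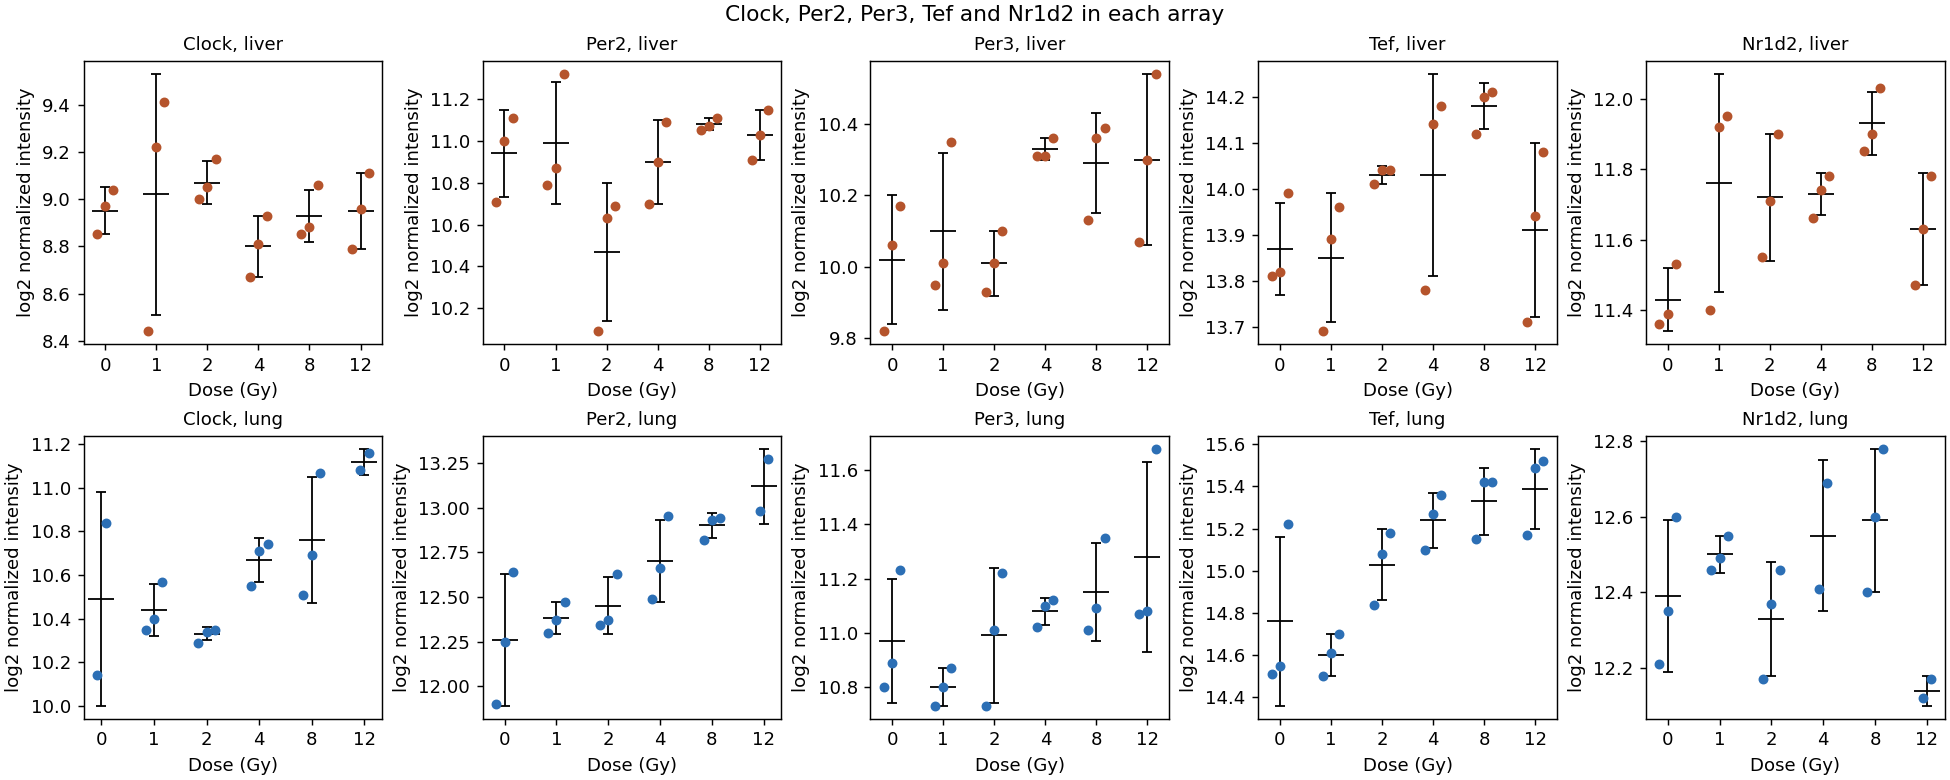
Log2 normalized intensity (y axis) of Clock, Per2, Per3, Tef and Nr1d2 against dose in Gy (x axis, evenly spaced categories) in liver (top) and lung (bottom), with 1 point per array and the mean ± SD in black. Lung panels of Clock, Per2 and Tef drift upward toward 12 Gy, the liver panels of the same genes do not, and groups with 2 points had 1 outlier-flagged spot left out.

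Cry1 and Npas2 could not be judged. The brighter Cry1 probe was well above background on 3 liver and 5 lung arrays, the other on 0, and its values lay between 4.48 and 5.57 over all 36 arrays. Cry1 did not pass in any comparison. The only Npas2 probe was well above background on 0 of 36 arrays and was not tested, so an increase from a level below detection would not have been seen unless it lifted the probe above background.

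Counted together, 9 members could be tested. In liver, 0 passed at 1 Gy, where 0.0417% of all probes did, and 0 at 2 Gy (0.461%). At 4 Gy 1 passed, Per1 (3.31% of all probes), at 8 Gy 2, Per1 and Nr1d2 (9.90%), and at 12 Gy 2, Per1 upward and Dbp downward (7.01%). The liver trend passed for 3 members, Per1, Nr1d1 and Dbp, against 9.51% of all probes. In lung, 0 passed at 1 Gy (0.0250%), 2 Gy (0.555%), 4 Gy (2.18%) and 8 Gy (4.25%), and 4 at 12 Gy (21.4%), Per1, Per2 and Tef upward and Nr1d1 downward. The lung trend passed for 7 of the 9, 5 upward and 2 downward, beside 30.7% of all probes. At an unadjusted p under 0.05, the comparisons with 0 passed held 2 members in liver at 1 Gy, 1 at 2 Gy, and in lung 0, 1, 4 and 4 at 1, 2, 4 and 8 Gy. Of all 38362 probes tested in liver, 2716 at 1 Gy and 4528 at 2 Gy lay under this unadjusted threshold. In lung 2426, 3371, 6122 and 7204 probes did so at 1, 2, 4 and 8 Gy, of 43979 tested (43976 at 4 Gy). The median over the members was 0.11 for the liver trend and 0.38 for the lung trend, beside 0.00 and 0.08 over all probes.

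**Figure D3:**
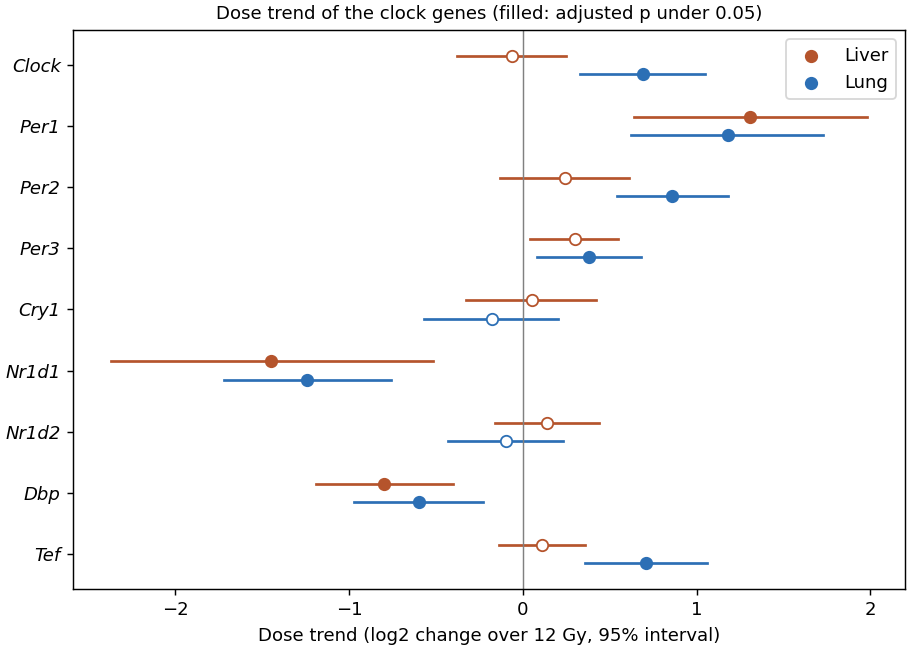
Dose trend (x axis, fitted log2 change over 12 Gy) of the 9 tested clock genes (y axis) in liver and lung, with 95% intervals from limma. Filled circles have an adjusted p under 0.05. Per1 lies to the right and Nr1d1 and Dbp to the left in both tissues, while Clock, Per2, Per3 and Tef are filled for lung alone.

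The difference between the tissues was tested directly on the 36 arrays normalized together. It passed for 2 of the 9 members, where 16.5% of all probes passed. The liver trend of Clock lay below its lung trend, by −0.81 ± 0.23 over 12 Gy (adjusted p = 0.0129), and so did that of Per2, by −0.77 ± 0.24 (adjusted p = 0.0216). For Tef the difference was −0.52 ± 0.19 (adjusted p = 0.0564). In a fit that included the slide neither difference passed, at −0.34 ± 0.46 for Clock and −0.61 ± 0.52 for Per2 (adjusted p = 0.976 and 0.939). The second bright Clock probe gave −0.17 ± 0.33 (adjusted p = 0.777), and the first with flagged spots kept −0.57 (adjusted p = 0.105). The Per2 difference was −0.71 without lung sample 26 of 12 Gy (adjusted p = 0.0629), −0.20 ± 0.34 for the dimmer probe (adjusted p = 0.748) and −0.27 as the mean over probes (adjusted p = 0.539).

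In the sham-exposed mice, 3 members differed between the tissues, beside 52.8% of all probes. Per1 was higher in lung, with 13.63, 12.65 and 12.41 in control lungs and 12.04, 11.30 and 11.49 in control livers on the joint scale, a difference of 1.28 ± 0.25 (adjusted p = 7.98e-05). The lowest lung exceeded the highest liver. All control livers lay on 1 slide and all control lungs on another, so tissue and slide coincided in this contrast. In a fit that included the slide Per1, Tef and Per2 did not pass, at 0.77, 0.87 and 0.41 (adjusted p = 0.352, 0.0551 and 0.53). Tef was higher in lung by 0.64 ± 0.15 and Per2 by 0.47 ± 0.19 under quantile normalization (adjusted p = 0.000465 and 0.0338), but scaling to the 75th percentile turned them to −0.49 and −0.04, with the median of all probes moving by −0.51. Per1 kept its direction under each scaling tried, down to 0.49 in the deposited series values (adjusted p = 0.0632). Dbp, Nr1d1, Nr1d2, Per3, Clock and Cry1 did not pass under quantile normalization. Dbp, at −0.22 ± 0.23 there, was −1.19 after scaling to the 75th percentile (adjusted p = 3.54e-05), −1.24 in the scaled processed signal (adjusted p = 1.88e-05) and −1.35 in the series values (adjusted p = 2.31e-06). The 3 members higher in lung became 1 higher and 4 lower after scaling to the 75th percentile.

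Since mice of one dose may differ in phase, the deviation of each sample from its dose mean was compared between liver and lung samples with the same number. The labels do not state that a number marks one mouse. Over all probes these deviations did not go together, with correlations from −0.07 to 0.10 over the 18 numbers. Among the members, Pearson's r was 0.75 for Per1 (exact permutation within dose, two-sided p = 0.0372), 0.59 for Dbp (exact p = 0.0169), 0.58 for Tef (exact p = 0.0163) and 0.52 for Nr1d1 (exact p = 0.0442), each over 18 numbers. Spearman's rho was 0.54, 0.57, 0.66 and 0.51 for the same genes (exact p = 0.0899, 0.0359, 0.00988 and 0.0657). The signs matched in 15 of 18 numbers for Dbp, 14 for Tef and 12 each for Per1 and Nr1d1. After Benjamini-Hochberg adjustment over the 10 members none passed, with exact adjusted p = 0.0846 for Dbp and Tef and 0.111 for Per1 and Nr1d1. Without the 2 numbers farthest from the median liver deviation, r was 0.51 for Per1 (exact p = 0.334), 0.61 for Dbp (exact p = 0.0567), 0.49 for Tef (exact p = 0.147) and 0.55 for Nr1d1 (exact p = 0.0675). At 0, 1 and 4 Gy the arrays of a dose shared a slide within each tissue, with 4 Gy on another slide than 0 and 1 Gy. Over the 9 numbers of these doses r was 0.73, 0.48, 0.58 and 0.42 (exact p = 0.148, 0.194, 0.0509 and 0.44). For the other 6 members r lay between −0.32 and 0.15.

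**Figure D4:**
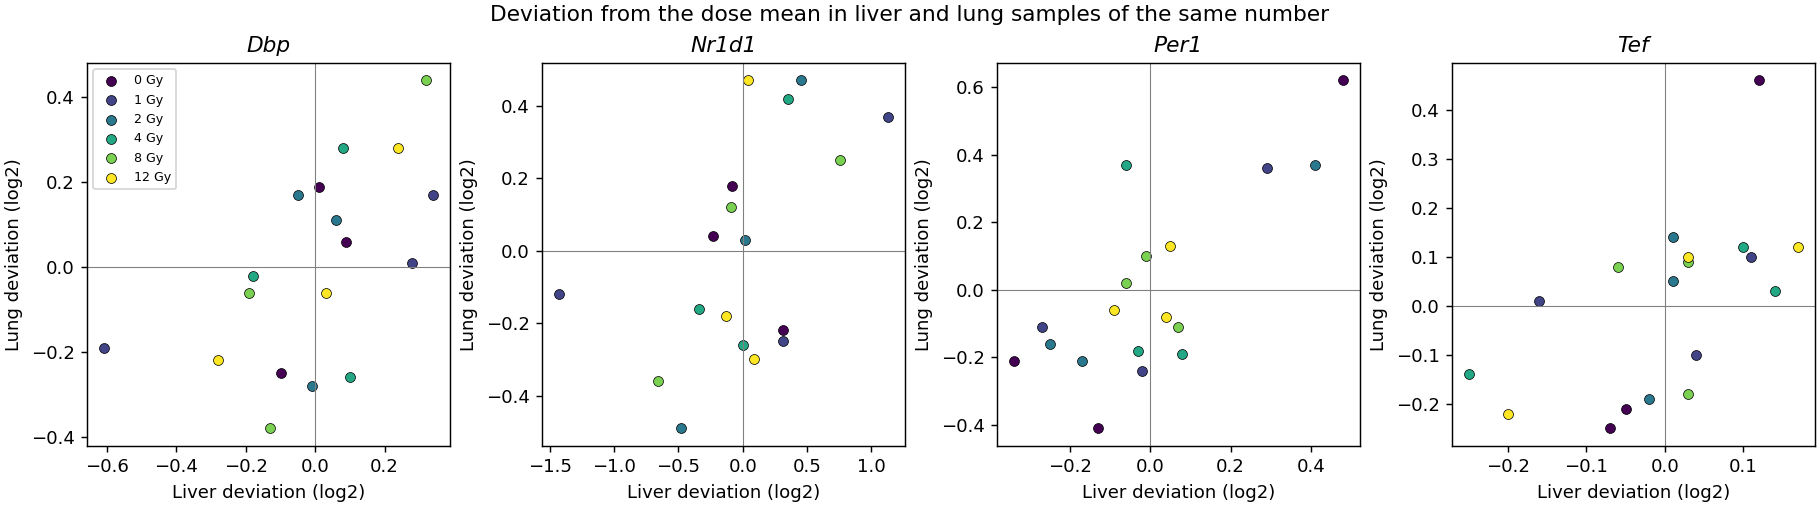
Deviation from the dose mean (log2) in liver (x axis) and in the lung sample of the same number (y axis) for Dbp, Nr1d1, Per1 and Tef, with 1 point per number, coloured by dose. Most points lie in the lower left and upper right quadrants, and r is 0.59, 0.52, 0.75 and 0.58 in that order.

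The genes whose values ran closest to a member over the 18 arrays of a tissue were looked up among probes well above background on all of them. In liver, Nr1d1 was closest to Mad2l2 and Eef2k (r = 0.91 each), Hs1bp3 and Tjp3 (0.90 each) and Dedd2 (0.89). Dbp was closest to Smagp (0.92), Dedd2 (0.91), Hs1bp3 (0.90), Eef2k (0.89) and Tjp3 (0.88), so 4 of the 5 genes were shared. In lung, Nr1d1 and Dbp were in each other's list, at r = 0.90 and 0.89, beside Lpcat1 (0.91 and 0.80) and Elovl1 (0.90 and 0.82). The arrays share dose and slide, and these values are a description. For Npas2 the values are those of a probe at background and name nothing.

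Of the other clock genes, a list of 15, 14 were tested in lung and 13 in liver. In the lung trend 7 passed, 5 upward and 2 downward, beside 30.7% of all probes. Cry2, the paralog of Cry1, rose by 1.08 ± 0.20 (adjusted p = 0.000586), Usp2, a deubiquitinase of clock proteins, by 1.00 ± 0.18, and Nfil3, which represses through the D-box, by 0.87 ± 0.21. The receptor gene Rora, whose product activates Arntl, rose by 0.70 ± 0.19. Ciart, a repressor of the CLOCK pair, fell by 1.03 on the log2 scale (SE 0.38, adjusted p = 0.0458). In liver the Ciart trend was 1.38 ± 0.43, which did not pass (adjusted p = 0.051), and the difference between the tissues was 2.33 ± 0.58 (adjusted p = 0.00535). Its other probe passed in liver, at 1.23 ± 0.26 (adjusted p = 0.0045), and not in lung, at −0.25 ± 0.27, with a difference between tissues of 1.36 ± 0.36 (adjusted p = 0.00849). Only Usp2 passed in the liver trend, at 0.88 ± 0.18 (adjusted p = 0.00409).

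Arntl, the partner of Clock, had a course in lung that a straight line does not describe, and its liver trend did not pass. Its lung means were 7.49 ± 0.14 (SD, n = 3) at 0 Gy, 6.81 ± 0.13 at 2 Gy, 7.10 ± 0.21 at 4 Gy and 6.95 ± 0.37 at 8 Gy. At 12 Gy the mean was 8.06 ± 0.18, above all controls, and this difference of 0.58 ± 0.18 passed (adjusted p = 0.0338). The 12 Gy lungs all lay on the last slide. The other 2 Arntl probes gave 0.06 ± 0.30 and 0.15 ± 0.39 at 12 Gy. They were well above background on at most 2 of the 18 lung arrays and are too dim to show such a rise. The rise therefore rests on the 1 probe that was well above background on all 18. Hlf, the remaining PAR factor, passed in neither trend (0.32 ± 0.18 in liver and −0.26 ± 0.17 in lung).

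Genes downstream of the clock, a list of 12, passed in 2 cases in the liver trend and 5 in lung, all upward, beside 9.51% and 30.7% of all probes. Por, the electron donor of cytochrome P450 enzymes, rose by 0.98 ± 0.15 in liver (adjusted p = 0.000315) and Cyp2a5, a DBP target, by 0.41 ± 0.13 (adjusted p = 0.0465). In lung Nampt, which makes the NAD precursor, rose by 0.74 ± 0.14 and Wee1, a cell cycle kinase, by 0.57 ± 0.15. Elovl3, a fatty acid elongase, rose there by 2.25 ± 0.84 (adjusted p = 0.0492).

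Transcripts that answer to glucocorticoids rose beside Per1. Of 10 listed genes, 7 passed upward in the liver trend and 10 in lung, with median trends of 1.15 and 1.71, where 9.51% and 30.7% of all probes passed in either direction. Fkbp5, a chaperone of the receptor, rose by 2.18 ± 0.26 in liver and 2.44 ± 0.32 in lung (adjusted p = 4.23e-05 and 3.04e-05), and Tsc22d3 (GILZ) by 1.18 ± 0.25 and 1.54 ± 0.23. Of 10 fasting genes, 7 passed upward in liver and 7 of the 9 tested in lung, beside the same shares of all probes, with Angptl4, an inhibitor of lipoprotein lipase, at 1.52 ± 0.26 and 2.65 ± 0.36, and Pdk4, which spares glucose, at 1.30 ± 0.31 and 2.28 ± 0.45. The lists were chosen with earlier results of these data known, and the part that either response had in the values of the clock genes was not tested.

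**Figure D5:**
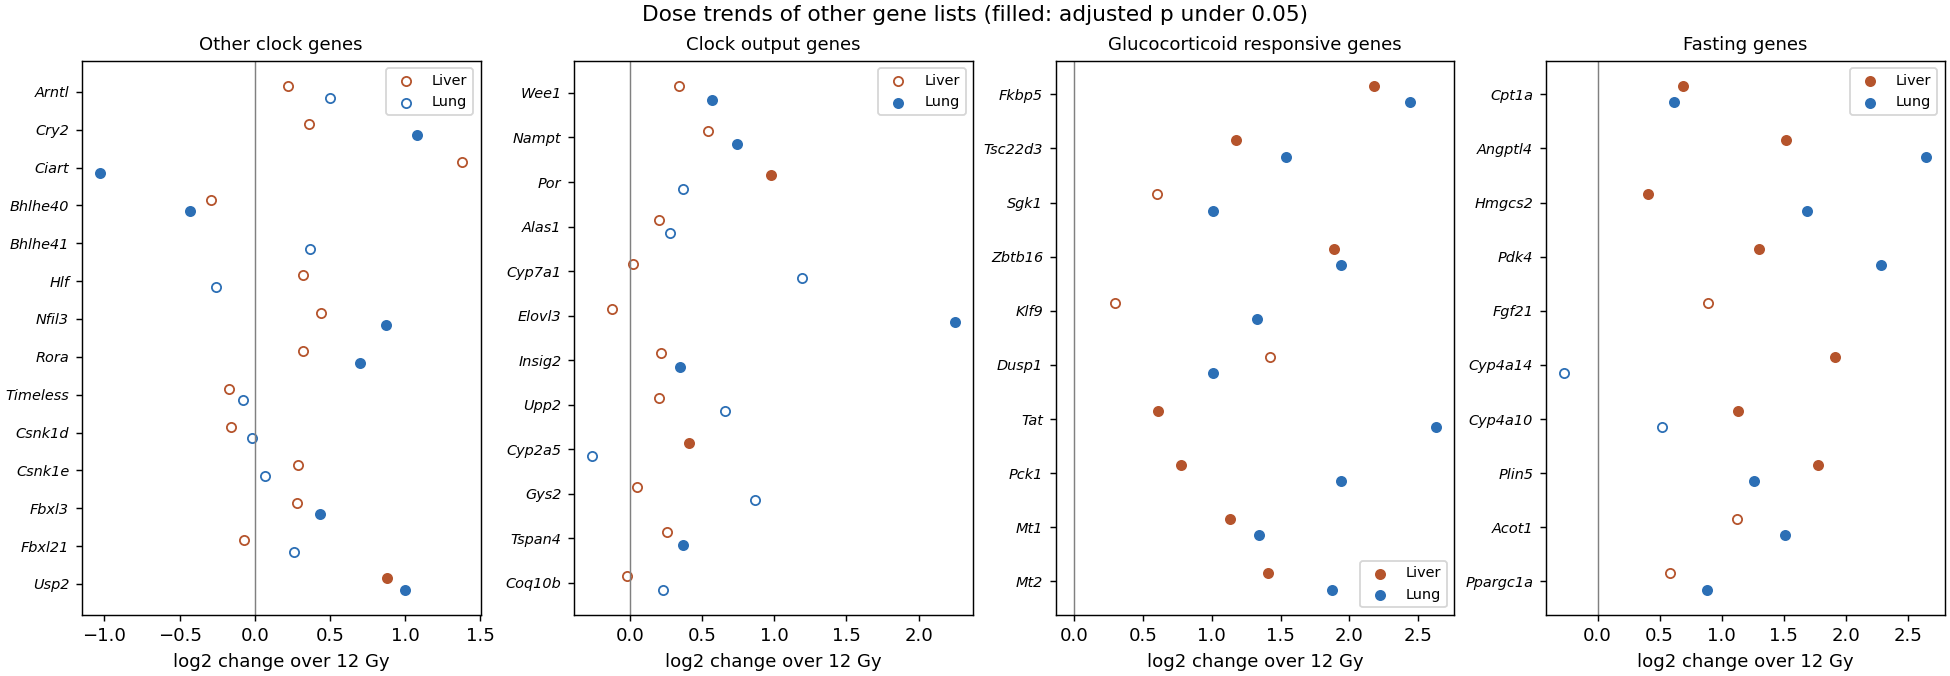
Dose trend (x axis, fitted log2 change over 12 Gy) of single genes (y axis) of 4 lists in liver and lung, filled where the adjusted p was under 0.05. Glucocorticoid and fasting genes lie to the right of 0 in nearly all cases, the other clock genes on both sides, with Ciart to the right in liver and to the left in lung.

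Markers of some cell types also changed with dose. Over all probes, 30.7% passed in the lung trend and 9.51% in the liver trend, in either direction. All 6 B cell and all 6 T cell markers fell in the lung trend, with medians of −3.16 and −3.86, against 3 of 5 and 4 of 6 in liver with medians of −2.06 and −1.07. The summed B cell signal went from between 13500 and 31400 in control lungs to between 972 and 1240 at 12 Gy, where Blk, Cd79a and Pax5 were not well above background on any array. Of 6 neutrophil markers 3 fell in the lung trend (median −1.03) and 1 in liver, although their summed signal was 11900 to 21100 in control lungs and 19300 to 39000 at 12 Gy. Of 6 macrophage markers 3 fell in the liver trend, where the sum went from between 26500 and 28600 to 17900, and in lung 1 rose and 1 fell. Of the erythroid markers, 1 rose and 2 fell of the 4 tested in lung, and 1 rose and 1 fell of the 5 in liver. Of the lung epithelium markers, 2 of 7 fell in lung, Sftpb and Sftpa1, and 0 of 7 hepatocyte markers passed in liver. The lung counts of the epithelium and macrophage markers were near the share of all probes. In whole organs fewer cells of a type and less RNA per cell cannot be told apart, and the part of these changes in the values of the clock genes was not tested.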

How the data were processed

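RNA of 18 livers and 18 lungs was profiled on one-colour Agilent mouse arrays after poly(A) RNA had been amplified and dye-labelled. Per the file headers, the deposited values are the median spot and background intensity and a processed intensity from Agilent Feature Extraction 11.5.1.1, with quality flags (other columns). A deposited series table holds scaled intensity values whose procedure is not given in the sources used here, and it served as an alternative. The miRNA arrays were not used here.

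Median intensities were background-corrected with normexp (limma 3.58.1, R 4.3.3, offset 0), control spots removed, outlier-flagged spots left out, arrays quantile-normalized within a tissue, taken to log2, and spots of a probe averaged. A probe was tested if 1 array or more showed it well above background. limma fitted the 6 doses of a tissue together, a straight line over dose, and all 36 arrays jointly for comparisons between tissues, with Benjamini-Hochberg adjustment over all probes. Probes were named through RefSeq accessions, which matched 34566 of 56605. All 10 members are given by their brightest probe. From the other lists, only some of the genes that passed a trend are named, at most 6 per list and tissue. Arntl, Cry2, Ciart, Nfil3 and Hlf are named whatever their values. Similar genes are the 5 with the highest r. The members and lists were chosen with earlier results of these data known. 1 gene of the lists is not reported here and was left out of its counts. The scripts were tested on simulated data. Alternatives changed the background offset, scaling, filter, outlier spots, probes, slide, number block and each sample in turn. Samples of a dose are separate mice per the methods. Figures were drawn with matplotlib 3.10.9 in Python 3.11.15.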

Additional observations from a re-analysis of the deposited data

Results flagged for a closer look

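The dose trend of Clock differed between liver and lung by −0.81 ± 0.23 (log2 over 12 Gy, limma adjusted p = 0.0129), with −0.06 in liver and 0.69 in lung. That of Per2 differed by −0.77 ± 0.24 (adjusted p = 0.0216), with 0.24 in liver and 0.86 in lung. Both were picked out because the test of the difference itself passed. Neither passed in a fit that included the slide, at −0.34 and −0.61 (adjusted p = 0.976 and 0.939). With the slide as a random block Clock passed at −0.78 ± 0.25 (adjusted p = 0.0475) and Per2 did not, at −0.75 ± 0.27 (adjusted p = 0.0745).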

How the results depend on the processing

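The number of members that passed fell to 0 in fits that included the slide for the liver comparisons at 4, 8 and 12 Gy, both trends that were fitted within a tissue, the difference between tissues and lung against liver at 0 Gy. With the slide as a random block it was 1 in liver at 8 and at 12 Gy, 1 for the difference between tissues and 0 in lung at 12 Gy. Arrays of slide 1 alone, slide 2 alone (liver) and slide 4 alone (lung), chosen after seeing the data, gave 0 for the trends, and leaving out slide 5 gave 1 for the lung trend. In slide 1 alone the liver trends of Dbp and Nr1d1 turned to 0.12 and 1.94. In slide 2 alone these liver trends kept their direction, at −1.10 and −1.84, as did the lung trends in slide 4 alone, at −1.42 and −1.68. In a fit that included the slide the lung trend of Per3 turned to −0.02. Fewer arrays enter the fits within 1 slide. Lung doses from 2 Gy up gave no value against 0 Gy in a fit that included the slide. The share of all probes that passed was not counted for any alternative, so the counts of members stand without it.

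In liver, no filter gave 1 at 8 and at 12 Gy, and the processed signal, the deposited series values and joint normalization each gave 1 at 8 Gy. In lung, the deposited series values and joint normalization gave 1 at 4 Gy. At 8 Gy the 75th percentile and joint normalization gave 3, the processed signal, series values, an offset of 50 and the stricter filter 2, and kept outlier spots 1. The mean over all probes of a gene gave 3 for the lung trend and 0 for the difference between tissues, and kept outlier spots 1 for the latter. Lung against liver at 0 Gy gave 5 with the 75th percentile. Under the 75th percentile, the processed signal and the series values it turned to −0.39, −0.41 and −0.52 for Nr1d2, to −0.04, −0.09 and −0.21 for Per2 (−0.05 as the mean over probes) and to −0.49, −0.51 and −0.62 for Tef, where the median of all probes moved by −0.51, −0.23 and −0.27. The cause was not tested.

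Leaving out 1 sample at a time gave 0 to 3 members in liver at 12 Gy, 0 to 1 at 4 Gy, 1 to 3 at 8 Gy and 2 to 3 for the trend. In lung it gave 3 to 6 at 12 Gy, 0 to 2 at 4 Gy, 0 to 3 at 8 Gy and 6 to 7 for the trend. The difference between tissues and lung against liver each ran from 2 to 3, and correlations of deviations that passed from 0 to 2. Over all probes, deviations of same-numbered liver and lung samples did not go together (r from −0.07 to 0.10 over 18 pairs, 7 closest to their own number). As the organs differ, this cannot show whether a number marks 1 mouse. Within lung, samples of 1 number series had r from −0.21 to 0.44, with 13 of 45 pairs over 0.1, and within liver from −0.13 to 0.07. The replicate block of the number series gave 1 in liver at 8 Gy, where Nr1d2 was lost (adjusted p = 0.0673), and 6 for the lung trend, where Per3 was lost (adjusted p = 0.06), and the sample number block 3 for the difference between tissues. Dim probes limit what can be seen of Cry1 and Npas2.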
